A study of Homo sapiens with 29 samples.

Results

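Genes whose wave of transcription moved in order were followed by DRB/TTchem-seq in HEK293, a cell line derived from human embryonic kidney. The wave peak is the position called for the peak of the wave of labelled RNA, not for its leading front. A gene was taken when its wave peak lay farther downstream at each later release time (10, 20, 30 and 40 min) in both control (shCr) and THOC5-depleted (shTHOC5) cells. The 10 min wave peak also had to lie at most 40 kb downstream of the TSS in both. Of 4592 listed genes, 608 (13.2%) had this order in shCr cells, 1438 (31.3%) in shTHOC5 cells and 424 in both. Of these 424 genes, 339 also met the limit on the first wave peak, which is 7.38% of the listed genes, 55.8% of the genes ordered in shCr cells and 23.6% of those ordered in shTHOC5 cells. The wave peaks of all 4 times in both series chose these genes. Their order and their positive slopes are therefore no finding, and all values below are a description of these libraries.

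Control cells were transduced for 4 days with lentivirus carrying the hairpin shCr (shCtrl in the labels), and THOC5-depleted cells (shTHOC5 cells below) with lentivirus carrying shTHOC5. Both were treated with 100 µM DRB for 3.5 h and washed, and 1 mM 4SU was given for a 10 min pulse. There was 1 library per condition and release time, 8 libraries in all, so no error between replicates can be given, no test between conditions was made, and any difference between cultures cannot be told apart from THOC5 depletion. The hairpin was not checked here, because THOC5 is not among the listed genes. Of the marker genes for this line, LIN28B had a coverage (reads per 1000000, rpm) of 230 rpm in shCr and 252 rpm in shTHOC5 cells and PAX2 57.7 and 12.3 rpm. Of genes of other cell types, the leukocyte gene PTPRC had 3.07 and 9.94 rpm and F13A1 3.26 and 2.08 rpm. PAX2 was thus close to PTPRC in shTHOC5 cells, and stood clearly above it in shCr cells only.

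DRB reversibly inhibits CDK9, the kinase that lets paused Pol II enter productive elongation. Pol II is held near the promoter, and after DRB release it enters genes as a synchronized wave that moves downstream as elongation proceeds. THOC5 is a subunit of the THO complex, which travels with Pol II and couples transcription to mRNA processing and export. Positions are given in kb from the TSS, and the observed window ran from 2 kb upstream to 120 kb downstream. A wave peak called at the first base of the window is therefore printed as -2.0 kb. Such a call gives no advance into the gene.

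The regions just upstream of the TSS are shown for slow and fast genes, because the release starts there. These are the first 3 of the 8 slowest and the first 3 of the 8 fastest genes with a RefSeq start within 100 bp of the TSS in the annotation and a sequence that could be shown. The 250 bases before the RefSeq start are given 5′ to 3′ on GRCh38.p14, with CpG dinucleotides in capitals. The slow genes are FAM20C (chr7:192321-192570, plus strand), which codes for a kinase of the secretory pathway, RAB3GAP1 (chr2:135052042-135052291, plus strand), a subunit of the Rab3 GTPase-activating complex, and RRAS2 (chr11:14364507-14364756, minus strand), a Ras-related GTPase. The fast genes are MOB1B (chr4:70902119-70902368, plus strand), an activator of Hippo pathway kinases, TFCP2 (chr12:51173136-51173385, minus strand), a transcription factor, and TADA2A (chr17:37406636-37406885, plus strand), an adaptor of histone acetyltransferase complexes.
FAM20C: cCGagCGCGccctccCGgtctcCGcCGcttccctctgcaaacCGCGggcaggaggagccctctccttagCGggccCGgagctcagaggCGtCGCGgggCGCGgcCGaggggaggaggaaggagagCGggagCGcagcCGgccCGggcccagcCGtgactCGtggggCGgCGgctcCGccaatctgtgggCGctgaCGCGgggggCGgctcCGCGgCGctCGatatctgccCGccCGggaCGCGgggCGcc
RAB3GAP1: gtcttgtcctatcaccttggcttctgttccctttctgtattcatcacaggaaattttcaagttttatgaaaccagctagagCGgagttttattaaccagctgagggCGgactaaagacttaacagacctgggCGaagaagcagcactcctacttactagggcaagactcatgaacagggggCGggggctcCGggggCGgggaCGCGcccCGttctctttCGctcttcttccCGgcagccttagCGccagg
RRAS2: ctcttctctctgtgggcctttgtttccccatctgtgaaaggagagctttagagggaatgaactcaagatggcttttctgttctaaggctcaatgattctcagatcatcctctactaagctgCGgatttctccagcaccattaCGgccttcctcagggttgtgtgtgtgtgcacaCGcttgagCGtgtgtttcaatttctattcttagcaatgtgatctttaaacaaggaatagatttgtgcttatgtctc
MOB1B: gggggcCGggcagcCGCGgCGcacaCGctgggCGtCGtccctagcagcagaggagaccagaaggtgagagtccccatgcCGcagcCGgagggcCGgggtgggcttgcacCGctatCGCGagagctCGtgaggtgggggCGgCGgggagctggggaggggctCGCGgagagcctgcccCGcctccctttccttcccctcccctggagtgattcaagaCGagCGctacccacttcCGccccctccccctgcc
TFCP2: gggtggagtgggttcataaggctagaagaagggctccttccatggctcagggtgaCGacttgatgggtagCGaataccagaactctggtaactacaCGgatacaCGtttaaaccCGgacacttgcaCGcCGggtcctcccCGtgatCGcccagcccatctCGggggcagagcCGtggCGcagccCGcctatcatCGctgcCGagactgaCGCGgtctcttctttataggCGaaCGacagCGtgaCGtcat
TADA2A: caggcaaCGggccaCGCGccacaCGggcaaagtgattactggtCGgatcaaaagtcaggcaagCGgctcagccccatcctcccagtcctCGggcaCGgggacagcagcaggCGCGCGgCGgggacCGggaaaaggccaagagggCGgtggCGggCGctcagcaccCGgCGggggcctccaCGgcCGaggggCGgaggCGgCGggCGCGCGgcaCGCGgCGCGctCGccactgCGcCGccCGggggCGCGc
The slow genes held 38 (FAM20C), 12 (RAB3GAP1) and 4 (RRAS2) CpG, and the fast genes 22 (MOB1B), 21 (TFCP2) and 36 (TADA2A). Slow and fast genes therefore overlapped in CpG content. Over the 174 genes of the group with a RefSeq start within 100 bp, the median GC content of these 250 bases was 68.2%, against 65.6% over the 2316 such genes among all listed. A ratio of observed to expected CpG of at least 0.6 was found in 162 of the 174 promoters (93.1%), against 77.2% of all 2316. The letters TATAAA on either strand were found in 14 (8.05%), against 5.92%.

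The 339 genes had a median width of 110462 bp, close to the 107569 bp of all listed genes. Coverage is 1 value per gene and series, named RPKM in the tables but read as rpm, since the values sum to 1000000 over the listed genes. How the 4 libraries of a series were combined in it is not given in the sources used here. The median coverage of the 339 genes was 265 rpm in shCr and 284 rpm in shTHOC5 cells, against 110 and 132 rpm over all listed genes. The part of this depth in the order of their wave peaks was not tested. The mark of the authors' own filters stood on 68 of the genes in both tables and on 166 in neither. It stood on 75 in shCr only and on 30 in shTHOC5 cells only, and was not used to choose them. The paper states that its filters left out poorly expressed genes and genes whose first wave peak lay below a set distance. The latter step was meant to limit noise near the TSS. In the 68 genes marked in both, the median slope was 0.209 kb/min in shCr and 0.217 kb/min in shTHOC5 cells. Their median slope ratio (shTHOC5 to shCr) was 0.962, and 52.9% had a lower slope in shTHOC5 cells.

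The median wave peak in shCr cells lay at 1.82 kb at 10 min (interquartile range -2.0 to 4.89 kb), then at 5.79 and 7.85 kb, and at 10.7 kb at 40 min (8.40 to 28.3 kb). In shTHOC5 cells it lay at -2.0, 4.23, 6.32 and 8.43 kb at the same times, with an interquartile range of 6.56 to 12.97 kb at 40 min. At every time the median lay at a lower position in shTHOC5 cells, at 10 min upstream of the TSS. The interquartile ranges of the series overlapped at every time. Per gene, the gap (shTHOC5 minus shCr) had medians of -0.750, -1.26, -1.26 and -1.70 kb in the order of the times. The shTHOC5 wave peak was the nearer to the TSS in 193 of 339 genes (56.9%) at 10 min, when 116 genes were equal, in 243 (71.7%) at 20 min, in 258 (76.1%) at 30 min and in 256 (75.5%) at 40 min. Over all listed genes these shares were 45.9%, 48.8%, 54.2% and 49.1%. At all of 20, 30 and 40 min it was nearer in 185 genes (54.6%, against 23.1% of all listed genes) and farther in 34 genes (10.0%, against 6.93% of all listed genes). At all 4 times it was nearer in 132 genes (38.9%, against 15.8% of all listed genes) and farther in 9 genes (2.65%, against 2.96%). Equal calls do not count as nearer. Among the 339 genes they numbered 0, 1 and 2 at 20, 30 and 40 min, and over all listed genes they are not given here. The rule that chose the genes used the same positions. Nothing particular to the group is therefore read from its shares beside all listed genes, here or below.

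The gap was also set against 10 min of travel. The shTHOC5 wave peak at 20 min fell short of the shCr wave peak at 10 min in 44 genes, or 12.98%, against 39% of all listed genes. At 30 min it fell short of shCr at 20 min in 133 genes (39.2%, against 37% of all listed), and at 40 min of shCr at 30 min in 119 genes (35.1%, against 40.5% of all listed). Nothing is read from these shares, since the rule that chose the genes used the same positions, and a gene with shCr at the window start at 10 min could not be counted in the first. The genes closest to the median course in all 8 libraries were SMG1, BAIAP2 and BAZ1A, with summed differences from it of 3.56, 4.31 and 4.46 kb. SMG1, a kinase of nonsense-mediated decay, had wave peaks at 2.28, 5.71, 8.22 and 9.52 kb in shCr and at -2.0, 4.55, 5.50 and 8.79 kb in shTHOC5 cells. Its shTHOC5 wave peak was the nearer at all 4 times.

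**Figure D1:**
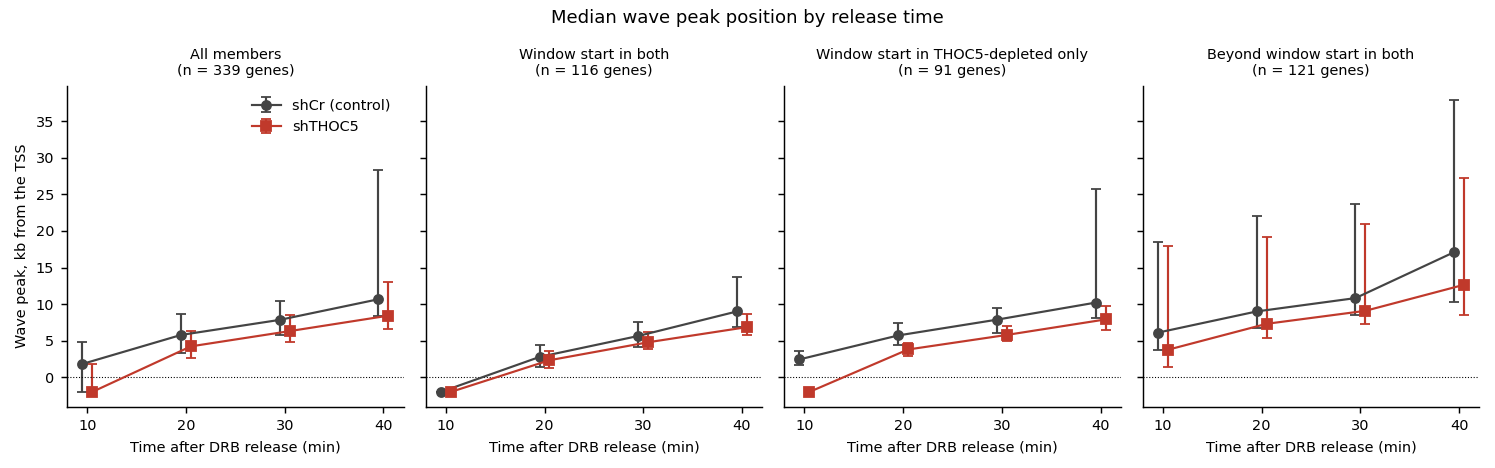
Wave peak position in kb from the TSS (vertical axis) against minutes after DRB release, as medians with interquartile ranges over genes, for all 339 genes and for 3 of the classes defined by the 10 min wave peak. The shTHOC5 median lies at or below the shCr median in every panel, and the shCr range widens most at 40 min.

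The first release time divided the genes. The wave peak at 10 min was at the very start of the window in 127 genes (37.5%) of shCr cells and in 207 genes (61.1%) of shTHOC5 cells, against 33.8% and 47.5% of all listed genes. It was there in both series in 116 genes, in shTHOC5 cells only in 91, in shCr cells only in 11, and in neither in 121. In the 91 genes at the window start in shTHOC5 cells only, the shCr wave peak at 10 min had a median of 2.45 kb, and the median gaps from 10 to 40 min were -4.45, -2.13, -1.75 and -2.29 kb. In the 116 genes at the window start in both, the gap was 0 at 10 min by construction of this class and then had medians of -0.472, -1.01 and -1.63 kb.

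The 121 genes whose wave peak had left the window start in both series allow a comparison of positions at all 4 times. Here the median gaps were -1.65, -1.23, -1.17 and -1.03 kb, and shTHOC5 cells had the nearer wave peak in 102, 93, 91 and 86 of the 121 genes. The gap was thus already present at 10 min in this class, and the median of its change from 10 to 40 min was -0.403 kb, with an interquartile range of -3.01 to 2.61 kb, which spans 0. Positions in the series kept a like order across these genes: Spearman's rho was 0.91 at 10 min, 0.90 at 20 min, 0.87 at 30 min and 0.62 at 40 min (n = 121 genes, which share libraries and are not replicates).

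**Figure D2:**
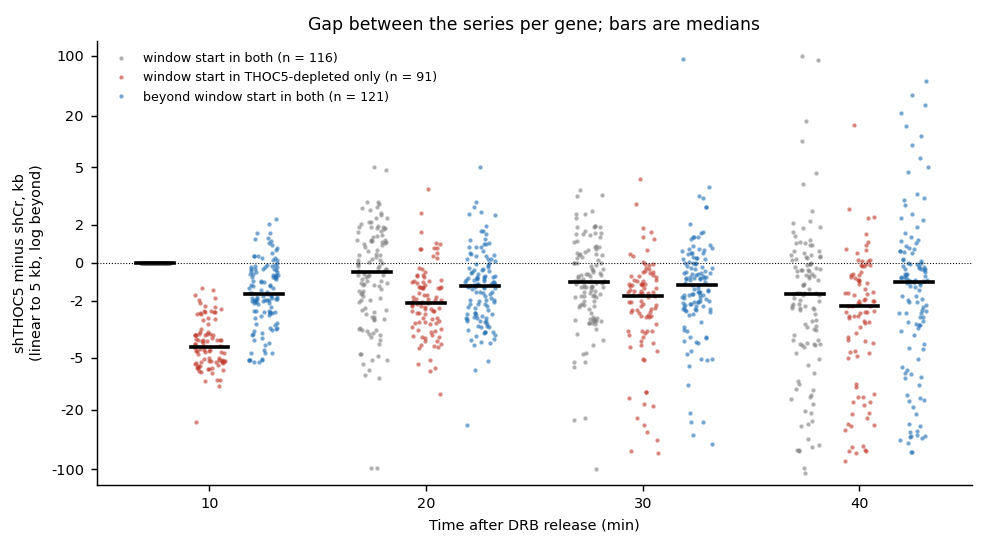
Gap between the series in kb (shTHOC5 minus shCr, linear to 5 kb and logarithmic beyond) for each gene at each release time, in 3 classes set by the 10 min wave peak, with black bars at the medians. Medians lie below 0 in every class shown from 20 min on, at -0.472 to -2.13 kb at 20 min, and the scatter is widest at 40 min.

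The slope of the wave peak over the 4 times, fitted by least squares without a point at 0 min, had a median of 0.299 kb/min in shCr cells (interquartile range 0.196 to 0.495) and 0.278 kb/min in shTHOC5 cells (0.224 to 0.343). The ratio of shTHOC5 to shCr slope had a median of 0.928 (0.677 to 1.39) and ran from 0.087 to 10.7. It was below 1 in 198 genes (58.4%), against 41.5% of all listed genes. This direction rested on the last time: without 40 min the median ratio was 1.04, and the slope was lower in 47.8% of the genes. With the mean in place of the median the ratio was 1.16, above 1, although the mean slope was lower in shTHOC5 cells (0.406 against 0.552 kb/min). The slopes are also given by class, although the 10 min call that sets the class is 1 of the 4 fitted points. In the 116 genes at the window start in both series the slopes were 0.354 and 0.285 kb/min, with a lower slope in shTHOC5 cells in 87 genes and a median ratio of 0.857. In the 91 genes at the window start in shTHOC5 cells only they were 0.251 and 0.318 kb/min, with a lower slope in 37 genes and a median ratio of 1.25. A start at -2.0 kb in shTHOC5 cells alone raises their slope, so this ratio is in part set by the class. In the 121 genes beyond it in both they were 0.218 and 0.224 kb/min, with a lower slope in 65 genes and a median ratio of 0.948. Across all 339 genes Spearman's rho between the slopes of the series was 0.40.

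Slopes below 0.5 kb/min were found for 255 genes in shCr and 300 in shTHOC5 cells, and slopes above 1 kb/min for 50 and 20 genes, 15 of them in both. Among these genes the spread of the slopes was thus narrower in shTHOC5 cells, and most of the difference lay on the fast side. The slope and 40 min counts given here, and those of long steps below, were not set beside all listed genes. The rule that chose the genes used the same positions, so nothing particular to the group is read from them. At 40 min the wave peak lay more than 40 kb from the TSS in 52 genes of shCr and 25 of shTHOC5 cells, and within 20 kb in 232 and 277 genes.

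**Figure D3:**
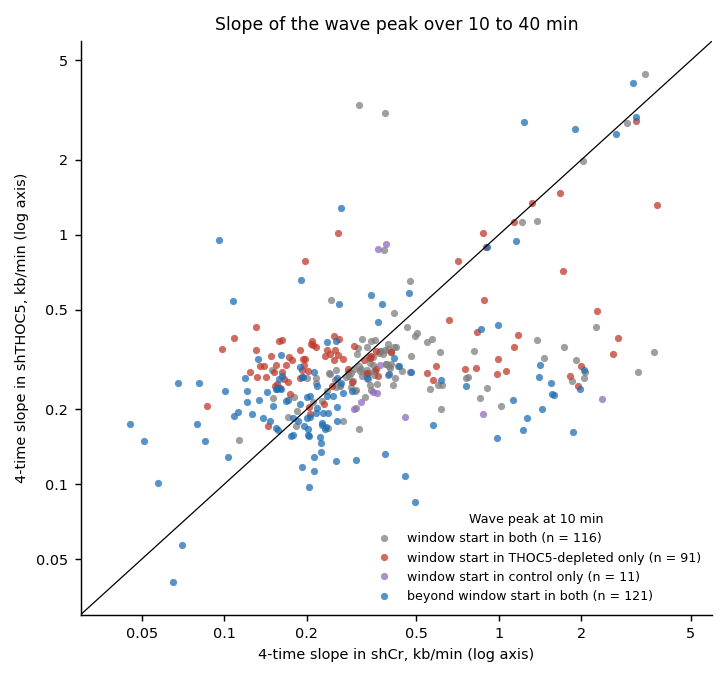
Slope over 10 to 40 min in shTHOC5 cells (vertical axis) against shCr cells (horizontal axis), both in kb/min on log axes, with 1 point per gene coloured by the class of its 10 min wave peak and a line of equality. Points lie below the line in 198 of 339 genes, and 50 shCr slopes but 20 shTHOC5 slopes exceed 1 kb/min.

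The advance was uneven in time. The median step was 3.53 kb from 10 to 20 min, 1.77 kb from 20 to 30 min and 2.40 kb from 30 to 40 min in shCr cells, and 4.20, 1.91 and 1.71 kb in shTHOC5 cells. The longest of the 3 steps made up a median of 62.1% of the distance from 10 to 40 min in shCr and 56.3% in shTHOC5 cells, and more than 50% of it in 257 and 232 genes. The longest step was the last in 111 genes of shCr and 66 of shTHOC5 cells, and the first in 163 and 235. A step of more than 40 kb occurred in 30 genes of shCr, 11 of shTHOC5 cells and 8 of both. Over the 306 genes without such a step in either series, the slopes were 0.266 and 0.272 kb/min, the median ratio was 0.951 and the gaps were -0.764, -1.17, -1.15 and -1.56 kb.

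The 8 slowest genes in both series included LMF1, ANKMY1, SPC25, FAM20C, ERICH1, RAB3GAP1 and RRAS2. From 10 to 40 min they advanced by 1.54 to 4.77 kb in shCr and 1.15 to 4.91 kb in shTHOC5 cells, and none had a step above 40 kb. LMF1 (chr16:853634-981318), a factor for the maturation of lipases in the endoplasmic reticulum, had wave peaks at 12.3, 13.6, 14.1 and 14.3 kb in shCr and at 12.1, 12.7, 13.3 and 13.3 kb in shTHOC5 cells. Its slopes of 0.065 and 0.040 kb/min came from a wave peak that lay far inside the gene at 10 min and hardly moved. SPC25 (chr2:168834132-168913371), a subunit of the kinetochore complex NDC80, had wave peaks at 26.6, 29.0, 29.1 and 30.0 kb in shCr and at 26.1, 28.1, 29.6 and 29.9 kb in shTHOC5 cells. Neither series was nearer throughout.

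FAM20C, whose upstream region is rich in CpG, moved from 6.08 through 6.52 and 6.98 to 7.63 kb in shCr and from 4.19 through 4.34 and 6.66 to 8.36 kb in shTHOC5 cells. RAB3GAP1 was at the window start at 10 min in both series and then at 0.599, 1.05 and 1.62 kb in shCr and 1.99, 2.59 and 2.81 kb in shTHOC5 cells. It was among the genes that lay farther from the TSS after THOC5 depletion. RRAS2, with the fewest CpG of the sequences shown, had wave peaks at 9.21, 11.5, 12.9 and 13.98 kb in shCr and at 8.48, 11.4, 13.1 and 13.4 kb in shTHOC5 cells, with slopes of 0.157 and 0.165 kb/min.

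The 8 fastest genes in both series were MOB1B, USP7, MGAM, TFCP2, TADA2A, ENSG00000267127, ZNF131 and CABLES1. They were the 8 genes with a step above 40 kb in both series, and this step made up more than 50% of their distance. The 40 min wave peak lay beyond the end of the gene in 4 of the 8 in both series (USP7, TFCP2, TADA2A and ENSG00000267127), so that their slopes took in positions past the annotated gene. Over all 339 genes this held for 7 genes in shCr and 4 in shTHOC5 cells. TADA2A (chr17:37406886-37479725, width 72840 bp) was at the window start at 10 min and then at 92.7, 92.7 and 95.4 kb in shCr and at 87.4, 89.0 and 91.1 kb in shTHOC5 cells. After this jump it advanced by little. TFCP2 (chr12:51093656-51173135, width 79480 bp) followed the same course, from 2.03 kb to 93.6, 96.6 and 106 kb in shCr and from -2.0 kb to 91.7, 92.2 and 93.0 kb in shTHOC5 cells. In TADA2A and TFCP2 every wave peak from 20 min on lay past the annotated gene end in both series.

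USP7 (chr16:8892097-8975328, width 83232 bp), a deubiquitinase that acts on MDM2 and p53, had wave peaks at 17.6, 22.4, 22.5 and 120 kb in shCr and at 15.7, 20.2, 114 and 120 kb in shTHOC5 cells. The jump thus came at 40 min in shCr and at 30 min in shTHOC5 cells, and the last call lay at the end of the window in both. MOB1B (chr4:70902326-71022449) was at the window start at 10 min and then at 98.1, 102 and 110.2 kb in shCr, and at 1.54, 99.4 and 113 kb in shTHOC5 cells. Its jump came 10 min later in shTHOC5 cells. ZNF131 (chr5:43065176-43192021), a zinc finger protein, kept its jump inside the gene, with wave peaks at -2.0, 62.5, 63.4 and 65.1 kb in shCr and at -2.0, 61.5, 62.2 and 63.4 kb in shTHOC5 cells. Its gap stayed below 2 kb at all times.

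Genes with the most unequal slopes differed mainly by a long step in 1 series. The 6 lowest ratios belonged to ZDHHC20, YAF2, FOXO3, DUSP16, SPSB1 and ARHGAP35, and each had a step above 40 kb in shCr and none in shTHOC5 cells. FOXO3 (chr6:108559835-108684774), a forkhead transcription factor, had wave peaks at -2.0, 1.94, 4.86 and 120 kb in shCr and at -2.0, 5.11, 6.76 and 8.78 kb in shTHOC5 cells, with slopes of 3.69 and 0.340 kb/min. At 20 and 30 min FOXO3 lay farther from the TSS in shTHOC5 cells, against the direction of its ratio of 0.092. YAF2 (chr12:42157104-42238349, width 81246 bp), a partner of YY1 and of Polycomb complexes, had wave peaks at -2.0, 100.3, 103 and 104 kb in shCr, beyond the gene, and at -2.0, 4.13, 5.10 and 7.03 kb in shTHOC5 cells. ARHGAP35 (chr19:46860997-47005077), a GTPase-activating protein, was nearer the TSS in shTHOC5 cells at every time, with 2.04, 4.18, 5.99 and 66.4 kb in shCr against -2.0, 1.73, 4.80 and 5.20 kb.

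The 6 highest ratios belonged to PREX1, TTLL11, CLIP1, AP2A2, PIAS2 and GTF2F2. In these the longest step of shTHOC5 cells made up more than 50% of the distance, and it was above 40 kb in 2 of the 6. PREX1 (chr20:48624252-48827999), an exchange factor for Rac, had wave peaks at -2.0, 4.37, 6.62 and 7.54 kb in shCr and at -2.0, 3.92, 6.02 and 108 kb in shTHOC5 cells. Its ratio of 10.7 rested on the 40 min call, and its coverage of 24.6 and 19.1 rpm was low for the group. CLIP1 (chr12:122271432-122422669), a protein of growing microtubule ends, had -2.0, 8.76, 9.27 and 10.7 kb in shCr and -2.0, 1.90, 3.66 and 99.6 kb in shTHOC5 cells. Up to 30 min CLIP1 lagged in shTHOC5 cells. GTF2F2 (chr13:45120510-45284893), a subunit of the general transcription factor TFIIF, had 1.80, 4.93, 7.18 and 7.62 kb in shCr and -2.0, 5.67, 8.52 and 23.3 kb in shTHOC5 cells, and lay ahead from 20 min on.

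**Figure D4:**
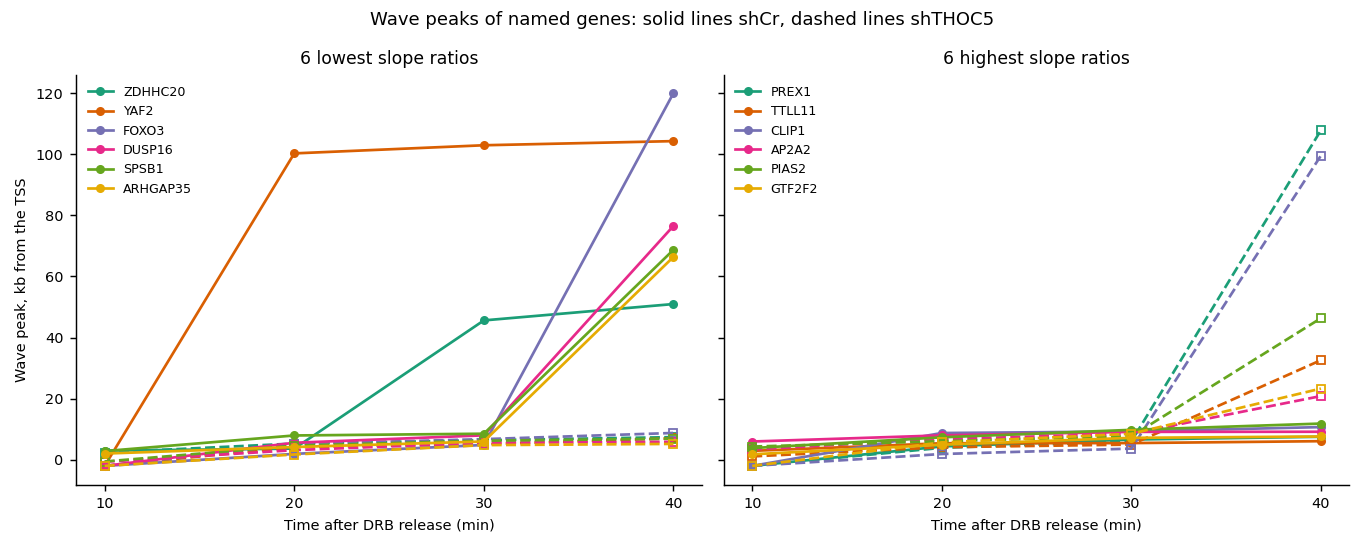
Wave peak in kb from the TSS against minutes after DRB release for the 6 genes of lowest and the 6 of highest slope ratio, solid lines for shCr and dashed lines for shTHOC5 cells. The left panel shows 6 shCr courses that jump by more than 40 kb, and the right panel shows shTHOC5 courses that leave the shCr course at 40 min.

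Some genes had closely similar courses in both series. The smallest largest gaps over the 4 times were those of EEPD1, CDK12, PHC3 and RRAS2. CDK12, a kinase of the Pol II C-terminal domain, had wave peaks at -2.0, 2.73, 4.51 and 5.88 kb in shCr and at -2.0, 3.02, 4.98 and 5.55 kb in shTHOC5 cells. Its slopes were 0.254 and 0.246 kb/min, at a coverage of 726 and 736 rpm. PHC3, a Polycomb protein, had -2.0, 2.53, 4.76 and 5.69 kb in shCr and -2.0, 1.89, 4.05 and 5.99 kb in shTHOC5 cells.

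Single gaps were largest in genes of other courses. At 10 min the largest lag was that of GATAD2A, a subunit of the NuRD complex, with 26.2, 29.7, 32.7 and 33.9 kb in shCr and -2.0, 25.8, 28.1 and 31.0 kb in shTHOC5 cells. The gap of -28.2 kb at 10 min was -3.90 kb by 20 min. SNX25, a sorting nexin, followed with a gap of -10.6 kb. Among the 2 largest leads at 10 min was that of SCAF11, a protein linked to splicing, at 4.71 kb. At 40 min the largest lags were those of FOXO3 at -111 kb and YAF2 at -97.3 kb, and the largest leads those of PREX1 at 100.4 kb and CLIP1 at 88.9 kb.

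Near the limit on the first wave peak, U2SURP, a protein of the U2 snRNP, lay just inside with 38.5, 41.2, 43.2 and 44.6 kb in shCr and 39.8, 41.0, 43.2 and 44.6 kb in shTHOC5 cells, and OPN3, an opsin, with 39.8 and 39.4 kb at 10 min. ARRB1, an arrestin, lay just outside with 40.0 and 40.1 kb at 10 min, and LIMD1, a scaffold protein of the Hippo pathway, with 41.9 and 40.9 kb. LIMD1 lagged by 1.01, 2.82, 3.23 and 2.53 kb. The 85 ordered genes beyond the limit had slopes of 0.228 and 0.175 kb/min, a median ratio of 0.809 with a lower slope in 53 of 85, and median gaps of -0.938, -1.06, -1.53 and -1.68 kb. The shTHOC5 wave peak was nearer the TSS in 65, 65, 72 and 65 of the 85 (76.5%, 76.5%, 84.7% and 76.5%) from 10 to 40 min. In the 339 genes the shares were 56.9%, 71.7%, 76.1% and 75.5%, with 116 equal calls at 10 min against 0 in the 85. A nearer wave peak in shTHOC5 cells was thus not particular to genes within the limit. Whether the 85 genes differ from the 339 was not tested.

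Of 32 listed genes for transcription elongation and termination, 8 were in the group (25.0%, against 7.38% of all listed genes), with median slopes of 0.336 and 0.291 kb/min and a lower slope in shTHOC5 cells in 5 of 8. From 10 to 40 min shTHOC5 cells had the nearer wave peak in 4, 3, 5 and 7 of the 8. The shares were 56.9%, 71.7%, 76.1% and 75.5% of the 339 genes, and 45.9%, 48.8%, 54.2% and 49.1% of all listed genes. The counts of nearer wave peaks in the lists that follow stand beside the same shares. Their lower slopes stand beside 58.4% of the 339 and 41.5% of all listed genes, and their shares in the group beside 7.38%. The part of the group's higher coverage in the shares of the lists was not tested. RTF1, a subunit linked to the PAF1 complex, had 9.88, 15.0, 18.0 and 56.8 kb in shCr and 10.1, 11.6, 12.7 and 16.5 kb in shTHOC5 cells. CDC73 of the same complex had -2.0, 0.545, 5.21 and 7.53 kb in shCr and -2.0, 2.89, 3.94 and 6.42 kb in shTHOC5 cells. These partners thus had slope ratios of 0.140 and 0.792.

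ELL, which stimulates Pol II elongation, had 5.07, 13.6, 15.9 and 16.4 kb in shCr and 1.86, 6.60, 10.7 and 15.4 kb in shTHOC5 cells. Its gap was largest at 20 min, at -7.00 kb, and -1.04 kb at 40 min. Its paralog ELL2 had -2.0, 2.85, 7.80 and 9.0 kb in shCr and -2.0, 2.96, 6.04 and 8.09 kb in shTHOC5 cells. RPRD2, a protein that binds the Pol II C-terminal domain, had -0.575, 0.601, 2.30 and 10.2 kb in shCr and -2.0, 3.20, 5.37 and 7.93 kb in shTHOC5 cells, and so lay ahead at 20 and 30 min and behind at 10 and 40 min.

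Chromatin modification and remodelling gave 15 of 72 listed genes (20.8%). At 30 min all 15 lay nearer the TSS in shTHOC5 cells, against 76.1% of the 339 genes, at 20 min 13 did and at 40 min 14, and the median gaps were -3.45, -2.67, -1.72 and -2.89 kb. The slope was lower in 10 of the 15 (66.7%), with a median ratio of 0.915. SMARCC1, a BAF complex subunit, had 1.73, 4.66, 5.41 and 6.59 kb in shCr and -2.0, 1.12, 4.27 and 5.21 kb in shTHOC5 cells. Its slope was nevertheless higher in shTHOC5 cells, at 0.248 against 0.153 kb/min. A 10 min call at the window start in shTHOC5 cells only, as here, raises that slope. DNA replication, repair and cohesin gave 12 of 55 genes (21.8%), of which 4 (33.3%) had a lower slope in shTHOC5 cells, with a median ratio of 1.50. The lists were drawn by patterns of gene names. These 12 therefore include CDC73, counted above with elongation, which is among the 4 with a lower slope. From 10 to 40 min 7, 8, 8 and 7 of the 12 lay nearer the TSS in shTHOC5 cells, with a median gap of -0.261 kb at 40 min. TOP1, the topoisomerase that relaxes supercoils ahead of Pol II, had 2.71, 8.87, 11.2 and 45.9 kb in shCr and -2.0, 6.20, 8.65 and 41.8 kb in shTHOC5 cells. It jumped at 40 min in both and lagged at every time. RRM2, a subunit of ribonucleotide reductase, had slopes of 0.143 and 0.234 kb/min, and PDS5A, a cohesin regulator, 0.254 and 0.374 kb/min.

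RNA processing and decay gave 16 of 63 genes (25.4%), with a median ratio of 0.955 and a lower slope in 9 (56.2%), and 9, 10, 13 and 11 of the 16 lay nearer the TSS in shTHOC5 cells. The helicase gene DHX15 had equal slopes of 0.236 kb/min, and LARP4, which binds poly(A) RNA, 0.212 and 0.282 kb/min. Ubiquitin conjugation and removal gave 23 of 136 genes (16.9%), with a median ratio of 0.908 and a lower slope in 13 (56.5%), and 13, 14, 14 and 18 of the 23 lay nearer. The conjugating enzyme gene UBE2K had 7.39, 8.58, 10.0 and 10.2 kb in shCr and -2.0, 4.21, 7.23 and 8.61 kb in shTHOC5 cells. UBE2L3, of the same family, jumped to 53.1 kb at 30 min in shCr, from 27.2 kb, and to 52.7 kb at 40 min in shTHOC5 cells, from 25.3 kb.

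Membrane trafficking gave 15 of 118 genes (12.7%), of which 7 (46.7%) had a lower slope, with a median ratio of 1.35, while 10, 13, 14 and 9 of the 15 lay nearer the TSS in shTHOC5 cells from 10 to 40 min. Protein kinases gave 10 of 105 (9.52%), of which 6 had a lower slope, with a median ratio of 0.822, and 4, 5, 8 and 8 of the 10 lay nearer. The kinase list is incomplete, and leaves out genes of the group such as KIT and EPHA4. The GTPase gene RAB10 had slopes of 0.152 and 0.281 kb/min, SPAG9, a JNK scaffold, 0.237 and 0.344 kb/min, and the clathrin adaptor gene AP2A2 0.107 and 0.542 kb/min. RAB10 and SPAG9 were at the window start at 10 min in shTHOC5 cells only, which raises that slope. Both lagged in shTHOC5 cells at 20, 30 and 40 min. Among the kinases, STK24 had 5.97, 10.0, 11.0 and 73.8 kb in shCr and 1.99, 7.31, 9.09 and 11.0 kb in shTHOC5 cells, and STK35 slopes of 0.835 and 0.408 kb/min. Nucleoporins and nuclear transport gave 6 of 33 genes (18.2%), of which 2 (33.3%) had a lower slope, and 4 of the 6 lay nearer at each time. NUP153, of the nuclear basket, had 0.706, 6.58, 8.72 and 23.6 kb in shCr and -2.0, 4.79, 7.04 and 23.4 kb in shTHOC5 cells. The exportin gene XPO6 had slopes of 0.108 and 0.386 kb/min and RANBP10 0.170 and 0.257 kb/min. RANBP10 entered the list by the pattern of its name, and no role in transport is read from that. XPO6 and RANBP10 were at the window start at 10 min in shTHOC5 cells only, which raises that slope. RANBP10 lagged in shTHOC5 cells at 20, 30 and 40 min, and XPO6 at 20 and 30 min but not at 40 min.

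Genes that the study had classed by 3′ end cleavage in its own libraries, as THOC5-dependent or independent, were also counted, although classes chosen within the study are no independent evidence. Of 230 listed THOC5-dependent genes 42 were in the group (18.3%), with slopes of 0.336 and 0.295 kb/min, a median ratio of 0.840 and a lower slope in 27 of 42. Of 42 listed THOC5 independent genes 7 were in the group (16.7%), with a median ratio of 0.769 and a lower slope in 5 of 7. From 10 to 40 min the shTHOC5 wave peak was nearer the TSS in 22, 26, 27 and 32 of the 42 THOC5-dependent genes. It was nearer in 5, 7, 7 and 6 of the 7 independent genes, so the independent genes of this group lagged too. The median gap at 40 min was -1.92 kb in the THOC5-dependent and -3.27 kb in the independent genes. The difference between the classes was not tested, and 7 genes are few.

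Slopes and coverage were nearly unrelated in rank across genes. Spearman's rho of the mean coverage with the slope was 0.01 in shCr and 0.09 in shTHOC5 cells (n = 339). The 113 genes of lowest coverage had median slopes of 0.302 and 0.277 kb/min, the 113 of middle coverage 0.308 and 0.270 kb/min, and the 113 of highest coverage 0.291 and 0.288 kb/min. Gaps differed more by coverage. At 10 min the median gap was 0 in the genes of lowest coverage, -0.332 kb in the middle and -2.54 kb in the highest, and at 20 min -0.732, -1.10 and -2.19 kb. At 40 min it was -1.16, -2.08 and -1.75 kb. At 20 min shTHOC5 cells had the nearer wave peak in 73, 77 and 93 of the 113 genes. Among the 121 genes beyond the window start in both series, rho of coverage with the gap at 10 min was -0.34.

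Gene width, too, was nearly unrelated in rank to the slopes. Spearman's rho of width with the slope was -0.01 in shCr and 0.02 in shTHOC5 cells. The narrowest 113 genes, of 61377 to 89582 bp, had slopes of 0.296 and 0.283 kb/min, and the widest 113, of 135874 to 294027 bp, 0.309 and 0.279 kb/min. The median gap at 40 min was -2.08 kb in the narrowest, -2.15 kb in the middle and -0.962 kb in the widest genes. The widest members, NCOA2 and BBX, lay farther from the TSS in shTHOC5 cells at 20 and 30 min. BBX had -2.0, 2.38, 3.72 and 10.8 kb in shCr and -2.0, 4.40, 6.28 and 7.28 kb in shTHOC5 cells. SMAD6, an inhibitor of BMP signalling and among the 2 genes of highest coverage, had 4.43, 6.70, 7.59 and 14.2 kb in shCr and 2.58, 5.30, 6.08 and 6.49 kb in shTHOC5 cells.

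**Figure D5:**
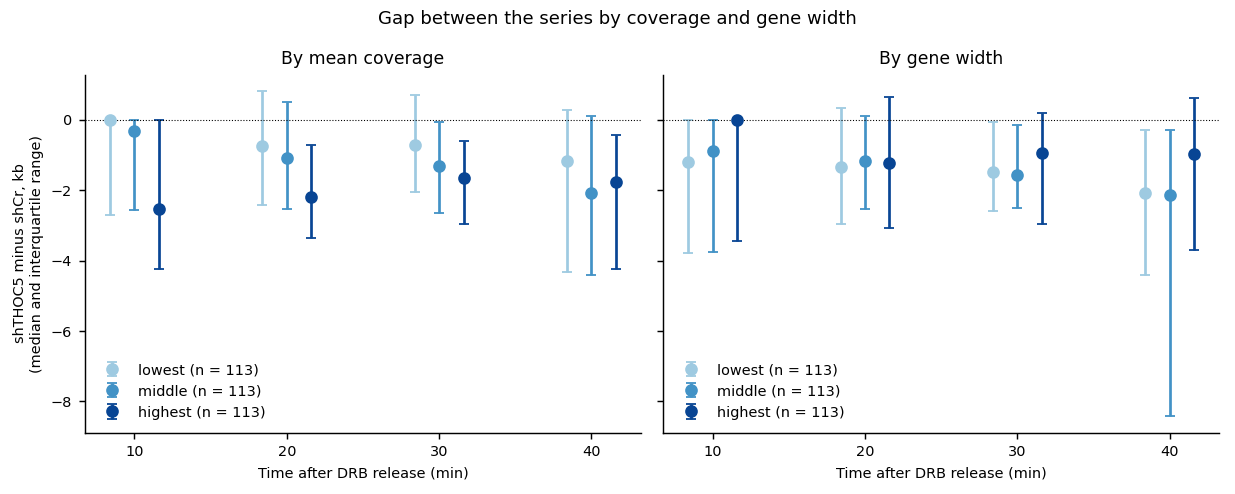
Median gap in kb (shTHOC5 minus shCr) with interquartile range at each release time, for 113 genes each of lowest, middle and highest mean coverage (left) and gene width (right). At 10 min the median goes from 0 in the genes of lowest coverage to -2.54 kb in those of highest coverage, and the ranges overlap.

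Base composition was also compared with the gap. Over the 322 genes whose listed width matched the annotation, the GC content of the first 10 kb had a median of 44.6%, against 43.2% over all listed genes. It was 42.5% in the genes at the window start in both series, 45.7% in those there in shTHOC5 cells only and 46.3% in those beyond it in both. Spearman's rho of this GC content with the gap was -0.41 at 10 min, -0.36 at 20 min, -0.23 at 30 min and -0.08 at 40 min, and with the slope -0.04 in shCr and 0.06 in shTHOC5 cells. Among the genes beyond the window start in both it was -0.31, -0.31, -0.26 and -0.25. The length of the first intron, with a median of 23301 bp, had a rho of -0.06 with the gap at 10 min. The points of all these correlations share the same 8 libraries, and the part of base composition in the gaps was not tested.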

How the data were processed

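Labelled RNA of HEK293 cells was measured by DRB/TTchem-seq, with 8 libraries used here, 1 per condition and release time. The authors took non-overlapping protein-coding genes, normalized the window coverage to the sequencing depth and called wave peaks with a published pipeline. The aligner is not given in the sources used here, and GRCh38 comes from the submitters' processing notes. The deposited tables hold wave peak positions in bp from the window start, bounded by the window at 122000, a rate in kb/min, and coverage named RPKM, whose values sum to 1000000 and were read as RPM. The reads per library are unknown, so no counting interval is given.

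Tables were joined on the gene identifier, 2 kb was subtracted from each position, and slopes were least-squares fits over the 4 times, tested on simulated data. The deposited rate equals a fit with a point at 0 added. Gene names and coordinates came from GENCODE release 44 (4590 of 4592 identifiers), older symbols and promoters from RefSeq. The members, lists and comparisons were chosen with earlier results of these data known. Genes named were the 8 slowest and 8 fastest in both series, the 6 lowest and 6 highest ratios, the 4 smallest largest gaps, 2 genes on either side of the limit, the 2 largest lags and leads at 10 and 40 min, 3 genes of highest coverage per list, all members of the elongation list, the 2 widest genes, the 2 of highest coverage and the 3 nearest the median course. Some genes that these rules name are not reported here. Alternatives changed the limit, the times, the slope and the genes. Scripts ran in Python 3.11.15 with scipy 1.17.1, pandas 2.3.3, numpy 2.4.6 and matplotlib 3.10.9.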

Additional observations from a re-analysis of the deposited data

How the results depend on the processing

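With 1 library per condition and time, no alternative measures replicate error, and the depth per library is unknown. Of 100 alternative values, 70 stayed in direction and inside the 95% interval over genes (order statistics for medians, Clopper-Pearson for the share, within 1.5 times for the number of genes), 27 moved and 3 reversed. The interval describes spread over genes only. These genes share the 8 libraries and are not replicates, and most alternatives refit or subset the same genes. Many values could therefore stay inside it by construction, and no robustness is read from their number. The number of genes was 107 with the first wave peak at or beyond the TSS and 1152 with ties allowed. Without 40 min the median slope ratio was 1.04 and the share with a lower slope in shTHOC5 cells 47.8%, both reversed, and the shTHOC5 slope 0.321 kb/min. With means the ratio was 1.16, also reversed. The mean slopes, 0.552 kb/min in shCr and 0.406 kb/min in shTHOC5 cells, were not reversed, nor were the mean gaps of -1.79, -1.88, -2.73 and -6.36 kb. The cause was not tested.

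Without 10 min the slopes were 0.231 kb/min in shCr and 0.189 kb/min in shTHOC5 cells. In shTHOC5 cells the slope was 0.293 kb/min without 20 min, 0.253 kb/min by Theil-Sen and 0.266 kb/min with no limit on the first wave peak. A point at 0 min gave a share of 68.7%. With the first wave peak at or beyond the TSS the slopes were 0.213 kb/min in shCr and 0.213 kb/min in shTHOC5 cells, and the 40 min gap -0.991 kb. With the filter mark in both tables they were 0.209 and 0.217 kb/min, the share 52.9% and the gaps -1.90 kb at 10 min and -1.59 kb at 30 min. With the first wave peak beyond the window start, an alternative chosen after seeing the data, they were 0.218 and 0.224 kb/min and the gaps -1.65 kb at 10 min and -1.03 kb at 40 min. No median gap changed sign under these alternatives. No paired analysis was possible because the labels give no replicate number and no result comes from a test. The gaps are differences at matched release times, and they were not tested, since the same positions chose the genes.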
